A study of Mus musculus with 6 samples.

Results

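Transcripts of 40 genes of the cell division cycle were followed in Kupffer cells, macrophages that live in the sinusoids of the liver, from Trem2-deficient (Trem2_KO) and wild-type (WT) mice. The 40 genes were taken by their symbol from a list that was chosen with earlier results of these data known. All are found among the 54532 genes of the count table. Of the 40, 18 act in DNA replication during S phase and 22 act in mitosis. All 40 had enough reads to be tested. There were 3 libraries per group. Every animal was male, was 8 weeks of age when high fat feeding began and was fed that diet for 8 weeks, and the WT mice were littermates of the Trem2_KO mice. Both groups therefore carry the diet, and no group on another diet was analysed here. The cells were sorted from liver, and their total RNA was sequenced after TruSeq library preparation. The sources used here do not state which part of Trem2 was deleted or in which cells, the gate of the sort, or whether each library is a separate animal. The p-values therefore measure the spread between these libraries, and that spread may be technical.

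Before a cell divides it copies its DNA once. Proteins such as CDC6 and CDT1 load the MCM helicase onto replication origins, CDC45 and the GINS complex switch the helicase on, and the sliding clamp PCNA holds the polymerases on the strand while ribonucleotide reductase and thymidylate synthase supply nucleotides. In mitosis, cyclins A and B with the kinase CDK1 drive entry, and kinesins and microtubule-binding proteins build the spindle. The BUB proteins watch attachment of the chromosomes, and the anaphase-promoting complex with CDC20 and UBE2C ends the phase. Genes of S phase are known as targets of E2F transcription factors, and genes of mitosis as targets of the MuvB complex, which recognises a short promoter element called CHR. Kupffer cells are long-lived macrophages that maintain their number largely by slow division within the liver.

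Total counts ran from 15799351 to 17135603 per library. Levels are given as CPM, a gene's reads scaled by the library's total after TMM normalization, and as the authors' FPKM, which also divides by gene length, where genes are compared with each other. Trem2 (ENSMUSG00000023992, chromosome 17, 48346401 to 48354147) was read at 84.8, 90.1 and 84.3 CPM in WT against 16.6, 17.4 and 14.5 CPM in Trem2_KO (log2 change -2.42, edgeR adjusted p = 1.68e-35), so that all 6 libraries matched their label. Kupffer cell markers were abundant in all 6 libraries. The summed level of 17 such markers was 58387 to 60258 CPM in WT and 51930 to 52906 CPM in Trem2_KO, and 12 of them were called lower. A gene was called at an adjusted p under 0.05 in edgeR's quasi-likelihood test over all 13776 tested genes. By that rule 30.4% of them were called, 2103 higher and 2079 lower, and with total counts in place of TMM 2517 were higher and 1588 lower. In bulk RNA, fewer dividing cells and less RNA of these genes per cell cannot be told apart.

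Cell cycle transcripts were lower in Trem2_KO Kupffer cells, in replication and mitosis genes alike. The fitted change was below 0 for all 40 members, from -0.80 for the cyclin gene Ccne2 to -0.10 for the thymidine kinase gene Tk1 on the log2 scale. Of the 40, 31 were called lower and 0 higher, against 15.1% of all tested genes called lower and 15.3% called higher (30.4% in either direction). At an unadjusted p under 0.05, 16 replication and 18 mitosis genes were lower and 0 higher. The share of all tested genes at an unadjusted p was not counted. DESeq2 called 13 and 10 lower and 0 higher, and 3096 of all genes in either direction. In 32 of the 40 every Trem2_KO library lay below every WT library, which held for 20.7% of all tested genes, and in 0 of the 40 did they lie above, which held for 20.9%. The median log2 change was -0.46 over the members and -0.01 over all tested genes. The number of calls rests on a small estimated spread, a biological coefficient of variation of 0.0378. With that value fixed at 0.1, 10 replication and 9 mitosis genes were called lower, and 1487 of all genes in either direction. With 0.2 fixed, 0 and 0 were called, and 371 of all genes. At 0.2, 6 replication and 5 mitosis genes had an unadjusted p under 0.05 and were lower. Markers of other cells that can divide or mix with the sort moved in both directions in the same libraries. The sums of stellate, monocyte, erythroid and cholangiocyte markers were higher in Trem2_KO and are given below. A higher sum did not always mean that the whole list rose. The median stellate change was -0.39, with 6 of 9 tested genes below 0. Plac8, which made up most of the monocyte sum, was called lower. Of 6 cholangiocyte markers only Spp1 could be tested. In the erythroid list 0 of 6 changes were below 0. B and plasma cell markers summed to 37.1 to 41.6 CPM in WT and 28.3 to 32.7 CPM in Trem2_KO. Of the 7 tested, 2 were called lower and 5 were not called. Hepatocyte markers summed to 1589 to 1655 and 1333 to 1373 CPM, with 6 of 12 called lower and 2 higher. Their part in the lower cell cycle transcripts was not tested.

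**Figure D1:**
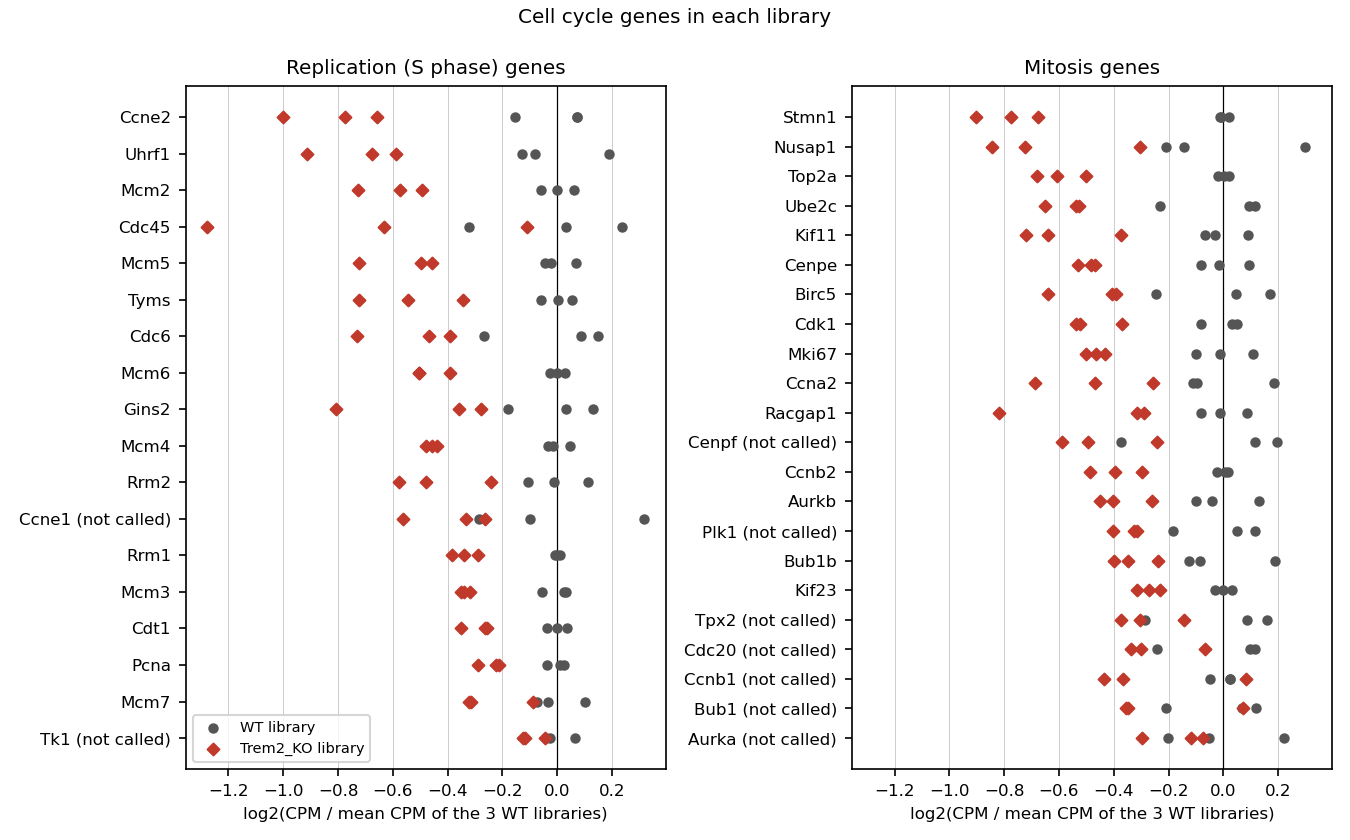
Each point is 1 library, placed on the horizontal axis by log2 of its CPM over the mean CPM of the 3 WT libraries, with 1 row per gene (grey circles, WT; red diamonds, Trem2_KO). The 3 Trem2_KO libraries lie left of the 3 WT libraries in 32 of the 40 rows, and the 9 genes that were not called are marked.

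The summed level of the 18 replication genes was 155.3, 154.7 and 152.8 FPKM in WT and 121.9, 123.6 and 121.8 FPKM in Trem2_KO, a mean of 154.3 ± 1.32 against 122.4 ± 0.985 FPKM (SD, n = 3). The summed level of the 22 mitosis genes was 66.4, 66.2 and 68.4 FPKM in WT and 48.6, 47.2 and 49.6 FPKM in Trem2_KO, a mean of 67.0 ± 1.21 against 48.4 ± 1.21 FPKM (SD, n = 3). The sums did not overlap between the groups. The replication sum was lower by a mean of 20.6% and the mitosis sum by a mean of 27.7%.

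The RefSeq promoter table (build GRCm38.p6) held a window for 33 of the 40 members, each running from 250 bases before to 50 after the start site nearest to the gene's 5′ end. No window was found for Ccne2, Gins2, Mcm4, Stmn1, Ccna2, Aurkb and Tpx2. The letters TTCCCGC and also TTCGCGC and also TTGCCGC and also TTGGCGC stood for the E2F motif, searched on both strands. The 4 replication genes below are those with the smallest p among members with a match inside the 200 bases before the start. All 4 therefore hold the letters by choice. Mcm2 and Pcna hold no E2F letters, Mcm3 holds them only after the start, and Mcm4 had no window. These genes had a smaller p than Rrm1 and are not shown. Each line is read 5′ to 3′ on the gene's strand, ends at the base before the start site, and carries the E2F letters in capitals.
Mcm5, chr8:75109309-75109508, plus strand: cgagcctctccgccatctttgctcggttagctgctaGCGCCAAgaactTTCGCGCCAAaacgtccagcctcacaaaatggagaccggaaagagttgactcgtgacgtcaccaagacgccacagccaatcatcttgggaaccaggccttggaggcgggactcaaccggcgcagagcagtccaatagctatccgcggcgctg
Mcm6, chr1:128359706-128359905, minus strand: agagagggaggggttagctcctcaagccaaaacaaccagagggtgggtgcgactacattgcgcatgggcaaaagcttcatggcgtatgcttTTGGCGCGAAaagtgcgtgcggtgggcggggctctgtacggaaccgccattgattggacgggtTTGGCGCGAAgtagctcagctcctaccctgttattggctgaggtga
Uhrf1, chr17:56303137-56303336, plus strand: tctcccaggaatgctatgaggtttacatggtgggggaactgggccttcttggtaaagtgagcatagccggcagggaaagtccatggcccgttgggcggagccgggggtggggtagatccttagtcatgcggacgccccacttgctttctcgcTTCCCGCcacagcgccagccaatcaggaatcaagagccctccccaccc
Rrm1, chr7:102441495-102441694, plus strand: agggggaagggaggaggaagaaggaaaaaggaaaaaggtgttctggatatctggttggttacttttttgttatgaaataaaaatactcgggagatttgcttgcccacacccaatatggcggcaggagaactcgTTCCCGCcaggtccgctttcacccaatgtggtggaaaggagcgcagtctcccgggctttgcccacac
Mcm5 holds 3 matches in this stretch and Mcm6 holds 4, some of which share bases with each other, while Uhrf1 and Rrm1 hold 1 each. In Mcm6 they form 2 identical runs in which a forward and a reverse match overlap.

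All 6 genes of the MCM helicase, the ring that unwinds DNA ahead of the polymerases, fell in Trem2_KO. Mcm5 (ENSMUSG00000005410, chromosome 8, 75109569 to 75128439) was read at 43.999, 40.7 and 41.3 CPM in WT against 29.8, 30.6 and 25.4 CPM in Trem2_KO. The log2 change came to -0.55 (SE 0.0679, adjusted p = 2.55e-09). Mcm2 (ENSMUSG00000002870, chromosome 6, 88883474 to 88898780) was read at 33.7, 35.2 and 32.3 CPM in WT against 22.7, 23.97 and 20.4 CPM in Trem2_KO, a log2 change of -0.60 (SE 0.0737, adjusted p = 3.27e-09). In both genes the highest Trem2_KO library stayed more than 8 CPM below the lowest WT library.

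Mcm6 was read at 48.3, 47.5 and 49.3 CPM in WT against 34.1, 34.05 and 36.9 CPM in Trem2_KO, with a log2 change of -0.47 (SE 0.0601, adjusted p = 9.33e-09). Mcm4 was read at 37.4, 35.7 and 35.3 CPM in WT against 26.7, 25.9 and 26.4 CPM in Trem2_KO, with a log2 change of -0.46 (SE 0.0673, adjusted p = 2.26e-07). The groups did not overlap in either gene, and the spread within each group was under 3 CPM. Mcm3, the most abundant of the 6 per length, went from 18.2 to 14.4 FPKM on average. In CPM it was read at 66.03, 70.1 and 69.7 in WT and 55.04, 54.2 and 53.8 in Trem2_KO, a log2 change of -0.34 (SE 0.0514, adjusted p = 5.40e-07). Mcm7 changed by -0.24 (SE 0.0681), the smallest change of the 6, and its call was lost without WT replicate 3 (adjusted p = 0.056). Mcm7 overlaps Cops6 and Ap4m1 on the other strand, with 4399 and 1828 reads over the libraries, and reads of overlapping genes cannot be told apart without the strand setting. Cops6 itself was called lower, at -0.19, and Ap4m1 was not called, at 0.19. The 6 subunits, which form a ring with 1 copy of each, differed in level from 4.83 FPKM for Mcm2 to 18.2 FPKM for Mcm3 in WT. That gap depends on the gene length used. In CPM, which does not divide by length, the WT means were 33.7 for Mcm2 and 68.6 for Mcm3.

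The clamp gene Pcna, by far the most abundant member at 51.1 FPKM in WT, was read at 124, 125 and 119.9 CPM in WT against 101, 106 and 106 CPM in Trem2_KO. It fell by 0.24 on the log2 scale (SE 0.0408, adjusted p = 4.44e-06), a smaller change than in most replication genes but without overlap between the groups. Uhrf1, which guides the copying of DNA methylation behind the replication fork, was read at 22.99, 18.4 and 19.05 CPM in WT against 10.7, 12.6 and 13.4 CPM in Trem2_KO. The log2 change came to -0.72 (SE 0.101, adjusted p = 8.86e-08). Uhrf1 is the only member within 20 Mb of the Trem2 locus, at a distance of 7.95 Mb on chromosome 17. Without it, 15 of the other 17 replication genes were called lower, with a median log2 change of -0.46.

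Genes that load and fire origins were all called lower, and 3 of the 4 calls were lost without some library. Cdt1 changed by -0.29 (SE 0.0788), Gins2 by -0.46 (SE 0.155), Cdc6 by -0.52 (SE 0.173) and Cdc45 by -0.59 (SE 0.218) on the log2 scale. In Cdc45 the groups overlapped, with 4.66, 5.37 and 3.64 CPM in WT against 4.22, 1.88 and 2.94 CPM in Trem2_KO. The call was lost for Cdc6 without WT replicate 2 or 3 or Trem2_KO replicate 2 (adjusted p = 0.069 to 0.0968), for Cdc45 without WT replicate 1 or 2 or Trem2_KO replicate 2 or 3 (adjusted p = 0.0827 to 0.263) and for Gins2 without WT replicate 2 or 3 or Trem2_KO replicate 3 (adjusted p = 0.0511 to 0.164). Gins2 overlaps Gse1 and Cdc45 overlaps Ufd1 on the other strand, with 4825 and 3611 reads over the libraries. Gse1 was called higher, at 0.25, and Ufd1 was not called, at -0.03.

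Of the 4 genes of nucleotide supply, 3 fell. Rrm1, the large subunit of ribonucleotide reductase, was read at 39.7, 39.3 and 39.4 CPM in WT against 32.3, 30.2 and 31.2 CPM in Trem2_KO, a log2 change of -0.34 (SE 0.0636, adjusted p = 2.99e-05). Its partner Rrm2 changed by -0.42 (SE 0.122) and the thymidylate synthase gene Tyms by -0.53 (SE 0.136). Tk1, the cytosolic thymidine kinase, was read at 72.2, 67.004 and 67.8 CPM in WT against 66.8, 63.5 and 63.3 CPM in Trem2_KO and was not called (-0.10, SE 0.0505, adjusted p = 0.153). Its groups still did not overlap, by a margin of less than 1 CPM. Tk1 overlaps Afmid on the other strand, which had 1544 reads over the libraries and was not called, at 0.16.

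The E cyclins, which start S phase with CDK2, were read rarely. Ccne2 changed by -0.80 (SE 0.247, adjusted p = 0.0103), with 24 to 48 reads per library and no overlap between the groups. Ccne1 was read at 2.11, 1.85 and 2.81 CPM in WT against 1.79, 1.88 and 1.53 CPM in Trem2_KO and was not called (-0.38, SE 0.269, adjusted p = 0.308). Ccne2 overlaps Ints8 on the other strand, which had 2537 reads and was not called, at -0.12.

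Promoters of the mitosis genes were searched for other letters. The CHR element was searched as TTTGAA and TTCGAA and the CCAAT box, bound by NF-Y, as CCAAT, each on both strands. The 4 genes below are those with the smallest p among members with a CHR match inside the 200 bases before the start, and capitals mark CHR and CCAAT letters.
Top2a, chr11:99024190-99024389, minus strand: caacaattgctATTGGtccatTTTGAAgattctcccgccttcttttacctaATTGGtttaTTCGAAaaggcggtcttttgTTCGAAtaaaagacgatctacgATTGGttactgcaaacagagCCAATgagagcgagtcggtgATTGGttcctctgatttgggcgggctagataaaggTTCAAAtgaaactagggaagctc
Mki67, chr7:135716380-135716579, minus strand: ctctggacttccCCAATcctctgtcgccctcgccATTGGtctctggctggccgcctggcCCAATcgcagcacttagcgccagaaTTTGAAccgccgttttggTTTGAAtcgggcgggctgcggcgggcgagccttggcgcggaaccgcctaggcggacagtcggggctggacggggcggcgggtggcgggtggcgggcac
Cdk1, chr10:69352913-69353112, minus strand: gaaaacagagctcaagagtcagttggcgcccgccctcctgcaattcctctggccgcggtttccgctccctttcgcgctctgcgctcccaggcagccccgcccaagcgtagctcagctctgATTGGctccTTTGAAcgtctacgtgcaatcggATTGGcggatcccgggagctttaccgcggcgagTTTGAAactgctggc
Kif11, chr19:37376182-37376381, plus strand: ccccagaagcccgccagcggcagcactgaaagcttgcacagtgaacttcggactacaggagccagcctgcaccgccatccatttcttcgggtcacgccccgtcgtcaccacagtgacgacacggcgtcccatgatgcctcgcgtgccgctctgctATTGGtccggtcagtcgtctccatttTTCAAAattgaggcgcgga
Top2a holds 4 CHR matches in this stretch, Mki67 and Cdk1 hold 2 and Kif11 holds 1. Mki67 and Cdk1 also hold E2F letters, left here in lower case. In all 4 stretches at least 1 CCAAT box lies upstream of a CHR match.

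Mitosis genes were led by a microtubule regulator and a topoisomerase. Stmn1 (ENSMUSG00000028832, chromosome 4, 134468320 to 134473843), whose product stathmin takes microtubules apart, was read at 25.7, 25.6 and 26.2 CPM in WT against 15.1, 13.8 and 16.2 CPM in Trem2_KO. The log2 change came to -0.78 (SE 0.0852, adjusted p = 1.02e-10), the smallest p of the 40. Top2a, the topoisomerase that untangles sister chromatids, was read at 37.5, 36.4 and 37.01 CPM in WT against 24.3, 26.2 and 23.1 CPM in Trem2_KO, a log2 change of -0.59 (SE 0.0692, adjusted p = 6.31e-10). In both genes the 3 WT libraries lay within 2 CPM of each other, and all Trem2_KO libraries lay at least 9 CPM below them.

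Mki67, the antigen used to stain dividing cells, was read at 51.3, 54.5 and 59.2 CPM in WT against 38.8, 40.8 and 39.8 CPM in Trem2_KO. The log2 change came to -0.47 (SE 0.0589, adjusted p = 6.02e-09), and WT replicate 3 was the highest library. Kif23, a kinesin of the central spindle, was read at 48.98, 49.997 and 51.1 CPM in WT against 42.6, 40.2 and 41.4 CPM in Trem2_KO and changed by -0.27 (SE 0.0573, adjusted p = 0.000157). Kif23 had the smallest change among the 8 mitosis genes with the smallest p. Its partner in cytokinesis, Racgap1, changed by -0.45 (SE 0.129), a call lost without Trem2_KO replicate 3 (adjusted p = 0.0898).

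Cdk1, the kinase that drives entry into mitosis, was read at 14.2, 15.5 and 15.3 CPM in WT against 11.6, 10.4 and 10.4 CPM in Trem2_KO, a log2 change of -0.47 (SE 0.105, adjusted p = 0.000342). The groups did not overlap. Its cyclins did not all pass the test. Ccna2 changed by -0.46 (SE 0.149) and Ccnb2 by -0.39 (SE 0.147), and both were called lower. Ccnb1 was read at 3.895, 3.9000 and 3.71 CPM in WT against 2.83, 2.97 and 4.06 CPM in Trem2_KO and was not called (-0.22, SE 0.199, adjusted p = 0.438). Its Trem2_KO replicate 3 lay above all 3 WT libraries. The call was lost for Ccna2 without WT replicate 1 or Trem2_KO replicate 2 (adjusted p = 0.108 to 0.118) and for Ccnb2 without any one WT replicate or any one Trem2_KO replicate (adjusted p = 0.0504 to 0.129). Ccna2 overlaps Exosc9 on the other strand, which had 1388 reads over the libraries and was called lower, at -0.47.

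Spindle and kinetochore genes were mostly lower. Kif11, the kinesin that pushes the spindle poles apart, was read at 9.71, 9.46 and 10.5 CPM in WT against 6.36, 6.01 and 7.65 CPM in Trem2_KO, a log2 change of -0.57 (SE 0.132, adjusted p = 0.000571). Cenpe, a kinesin of the kinetochore, was read at 9.898, 9.46 and 10.7 CPM in WT against 6.94, 7.16 and 7.24 CPM in Trem2_KO, a log2 change of -0.49 (SE 0.127, adjusted p = 0.00187). Neither gene overlapped between the groups. Nusap1 changed by -0.60 (SE 0.199), a call lost without WT replicate 3 or Trem2_KO replicate 1 or 2 (adjusted p = 0.0632 to 0.154). Nusap1 overlaps Oip5 on the other strand, which had 76 reads over the libraries. Cenpf, at 5.56, 3.96 and 5.88 CPM in WT against 4.34, 3.64 and 3.41 CPM in Trem2_KO, and Tpx2, at 10.03, 7.74 and 10.5 CPM in WT against 7.28, 7.65 and 8.53 CPM in Trem2_KO, were not called (-0.43 and -0.27, adjusted p = 0.0618 and 0.117). In both of them WT replicate 2 was the lowest WT library, and without it both were called (adjusted p = 0.0168 for Cenpf and 0.0306 for Tpx2). Cenpf was also called without Trem2_KO replicate 1 (adjusted p = 0.0458).

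Among the genes of the checkpoint and of anaphase, Ube2c, the ubiquitin-conjugating enzyme of the anaphase-promoting complex, was read at 8.05, 7.93 and 6.33 CPM in WT against 4.74, 5.16 and 5.12 CPM in Trem2_KO, a log2 change of -0.57 (SE 0.149, adjusted p = 0.00231). Bub1b, a checkpoint gene, changed by -0.33 (SE 0.113), a call lost without WT replicate 3 or Trem2_KO replicate 2 or 3 (adjusted p = 0.0564 to 0.19). Bub1, its relative, was read at 3.64, 3.005 and 3.77 CPM in WT against 2.72, 2.73 and 3.65 CPM in Trem2_KO and was not called (-0.19, SE 0.207, adjusted p = 0.523). The activator Cdc20 was read at 5.24, 5.18 and 4.09 CPM in WT against 3.93, 4.61 and 3.82 CPM in Trem2_KO and was not called (-0.23, SE 0.175, adjusted p = 0.345). In both Bub1 and Cdc20 the highest Trem2_KO library lay above the lowest WT library. Cdc20 overlaps Elovl1 on the other strand, a gene with 10984 reads over the libraries that was not called, at -0.02.

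Of the mitotic kinases, Aurkb, the kinase of the chromosome passenger complex, and Birc5, which encodes its partner survivin, were called lower at -0.37 (SE 0.117) and -0.47 (SE 0.162). The call was lost for Aurkb without WT replicate 3 or Trem2_KO replicate 2 (adjusted p = 0.0593 to 0.0818) and for Birc5 without WT replicate 2 or 3 or Trem2_KO replicate 3 (adjusted p = 0.0587 to 0.128). Plk1 was read at 5.81, 4.73 and 5.56 CPM in WT against 4.28, 4.31 and 4.06 CPM in Trem2_KO, without overlap, and was not called (-0.35, SE 0.167, adjusted p = 0.11). Aurka, the kinase of the spindle poles, was read at 4.15, 5.56 and 4.602 CPM in WT against 4.39, 3.88 and 4.53 CPM in Trem2_KO and was not called (-0.16, SE 0.174, adjusted p = 0.535). Aurka was the mitosis gene with the change nearest 0.

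Calls of several of these genes were also lost with other tools. DESeq2 did not call Cdc6, Cdc45 and Gins2 among the replication genes, nor Ccna2, Ccnb2, Bub1b, Birc5 and Nusap1 among the mitosis genes. With limma on log2 FPKM the calls of Cdc6, Cdc45, Gins2, Mcm7, Ccna2, Bub1b, Birc5, Nusap1 and Racgap1 were lost, and Ccnb2 was lost with total counts in place of TMM or without a filter on low counts.

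Replication and mitosis genes had similar median changes and different depths. Of the replication genes, 16 of 18 were called lower, against 15.1% of all tested genes, with a median log2 change of -0.46. Of the mitosis genes, 15 of 22 were called lower with a median of -0.44. The replication genes had a median of 409.7 reads per library and a median SE of 0.0763, and the mitosis genes 119.6 reads and 0.14. Split at a mean of 10 CPM over all libraries, a level chosen after the data were seen, 10 of 11 replication and 7 of 7 mitosis genes at or above it were called lower, with medians of -0.34 and -0.47. Below it, 6 of 7 replication and 8 of 15 mitosis genes were called lower, with medians of -0.52 and -0.43, so the order of the classes turned with the level. The difference between the classes was not tested. At an adjusted p under 0.01, 12 replication and 9 mitosis genes were called lower. The share of all tested genes called lower was not counted by level or at that threshold.

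**Figure D2:**
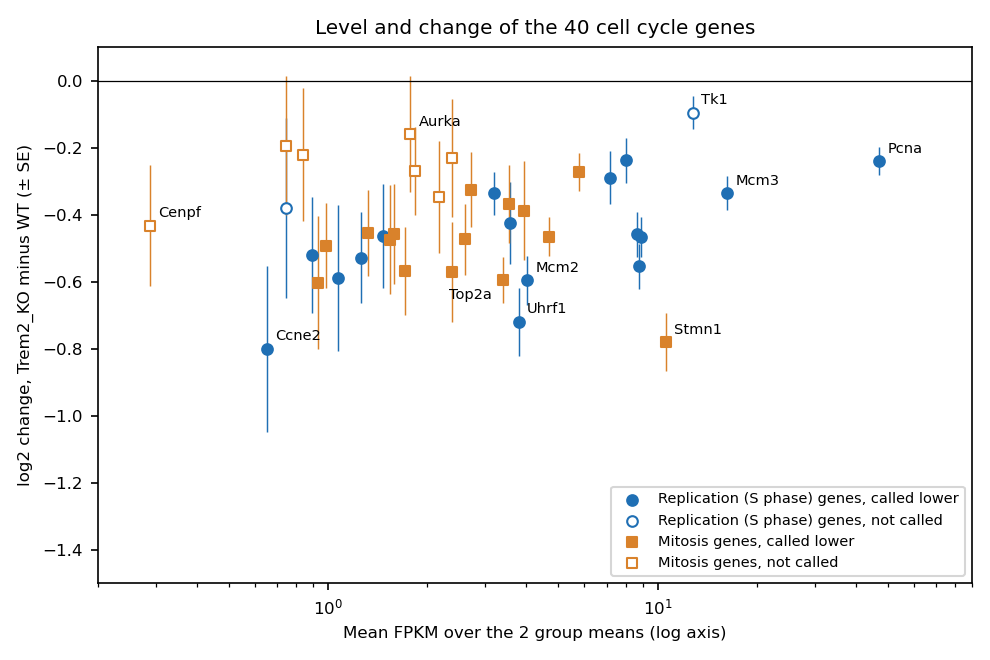
Each point is 1 of the 40 genes, with the mean FPKM of the 2 groups on a log axis and the log2 change (Trem2_KO minus WT) with its SE on the vertical axis (blue circles, replication; orange squares, mitosis; open symbols, not called). All 40 points lie below 0. Pcna at -0.24 and Stmn1 at -0.78 are the most abundant replication and mitosis genes per length.

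The ratio of the mitosis sum to the replication sum was 0.427, 0.428 and 0.447 in WT and 0.398, 0.382 and 0.407 in Trem2_KO, without overlap. Much of both sums came from a single gene each. Pcna made up 32.5 to 36.1% of the replication sum and Stmn1 15.2 to 20.1% of the mitosis sum. Without both genes, a choice made after the data were seen, the ratio was 0.511, 0.515 and 0.532 in WT and 0.509, 0.501 and 0.529 in Trem2_KO, and the groups overlapped. With only Pcna left out it was 0.639 to 0.663 in WT and 0.59 to 0.637 in Trem2_KO. With only Stmn1 left out it was 0.342 to 0.359 in WT and 0.324 to 0.338 in Trem2_KO. The groups thus stayed apart with either gene left out, narrowly in each case, and overlapped with both left out.

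**Figure D3:**
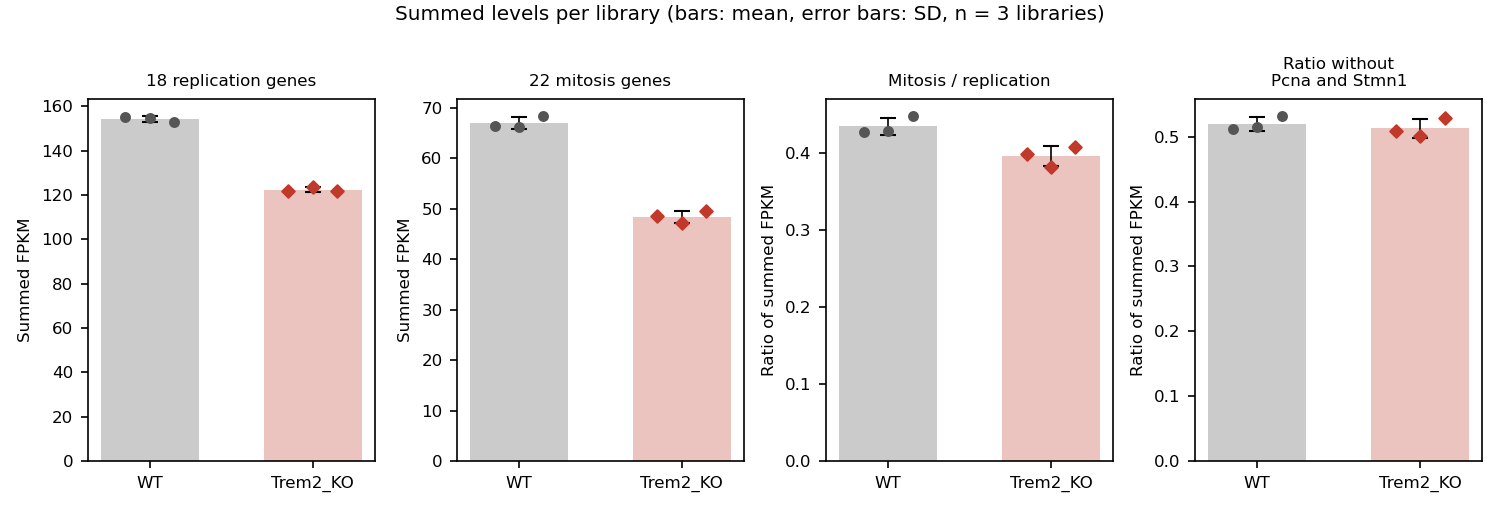
The panels show, from left to right, the summed FPKM of the 18 replication genes, that of the 22 mitosis genes, the ratio of mitosis to replication, and the same ratio without Pcna and Stmn1 (points, libraries; bars, mean; error bars, SD, n = 3). Both sums and the ratio over all members separate the groups, and the last ratio does not.

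Further genes of both phases were taken from lists that hold none of the 40 but were chosen with earlier results of these data known. Their edgeR calls are read against the 15.1% of all tested genes called lower and the 15.3% called higher. Of 47 other replication genes, 28 were not called, 19 were called lower and 0 higher (unadjusted p under 0.05: 25 lower and 0 higher), with a median log2 change of -0.26. DESeq2, which called 3096 of all genes in either direction, called 12 lower and 0 higher. Dck, the deoxycytidine kinase, changed by -0.27 (SE 0.0413, adjusted p = 5.12e-07). The initiation factor gene Mcm10 changed by -0.78 (SE 0.136, adjusted p = 6.97e-06), the single-strand binding protein gene Rpa2 by -0.68 (SE 0.122, adjusted p = 1.19e-05) and the polymerase subunit gene Pold2 by -0.50 (SE 0.104, adjusted p = 0.000144). Mcm10 was read at 11.05, 9.33 and 9.397 CPM in WT against 5.38, 5.52 and 6.41 CPM in Trem2_KO, without overlap.

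Of 64 other mitosis genes, 41 were not called, 22 were called lower and 1 higher, with a median of -0.33. DESeq2 called 12 lower and 1 higher, out of 3096 calls over all genes. Foxm1, a transcription factor of mitosis genes, was read at 9.004, 8.38 and 10.7 CPM in WT against 5.15, 5.04 and 5.53 CPM in Trem2_KO, a log2 change of -0.84 (SE 0.141, adjusted p = 4.09e-06). The separase gene Espl1 changed by -0.73 (SE 0.147, adjusted p = 8.57e-05) and the condensin gene Ncapd2 by -0.40 (SE 0.0856, adjusted p = 0.000226). The gene that was called higher was Ncapg2, a subunit of the other condensin complex, read at 48.3, 46.7 and 48.1 CPM in WT against 56.9, 58.996 and 59.02 CPM in Trem2_KO (log2 change 0.29, SE 0.0541, adjusted p = 2.65e-05). Its 3 Trem2_KO libraries lay above all WT libraries.

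Some genes that restrain the cycle were higher in Trem2_KO. Of all 43 control genes, 9 were called lower and 8 higher, near the 15.1% and 15.3% of all tested genes, with a median log2 change of -0.03. That share is no result about the list. Cdkn1a, an inhibitor of cyclin-dependent kinases and a target of p53, was read at 18.3, 20.3 and 20.97 CPM in WT against 41.5, 35.9 and 36.01 CPM in Trem2_KO, a log2 change of 0.93 (SE 0.0752, adjusted p = 5.28e-15). It lies 19.2 Mb from Trem2 on chromosome 17. Cdkn1b, an inhibitor known from resting cells, was read at 81.99, 80.05 and 83.9 CPM in WT against 130.2, 122 and 116 CPM in Trem2_KO, a log2 change of 0.59 (SE 0.0443, adjusted p = 4.75e-16). In both genes all Trem2_KO libraries lay above all WT libraries. Of 8 CDK inhibitor genes tested, these 2 rose, 5 were not called and 1 fell, Cdkn2c at -0.58, chosen after its value was seen.

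Growth arrest genes were led by Gadd45b, a stress-induced gene, which was read at 22.5, 22.6 and 20.97 CPM in WT against 54.5, 48.1 and 56.5 CPM in Trem2_KO (log2 change 1.27, SE 0.0678, adjusted p = 5.37e-22). Btg2, an antiproliferative p53 target, was read at 246, 239.5 and 242 CPM in WT against 304, 317 and 306 CPM in Trem2_KO (log2 change 0.35, SE 0.0315, adjusted p = 2.34e-13). Of the 9 genes in this group 4 were called higher and 2 lower, against 15.3% and 15.1% of all tested genes. The other calls, named after their values were seen, were Sesn2 at 0.23 and Btg1 at 0.14, both higher, and Sesn1 at -0.33 and Trp53 at -0.13, both lower. The call of Trp53 was lost with total counts in place of TMM, with DESeq2 and without WT replicate 1 or Trem2_KO replicate 2.

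Genes of the step from G1 to S went both ways, and those named here were chosen after their values were seen. Of 9 genes for cyclins, their kinases and the phosphatase CDC25A, 4 were called lower and 2 higher, against 15.1% and 15.3% of all tested genes. Ccnd1 changed by -0.29, Ccnd3 by -0.32, Cdk4 by -0.32 and Cdc25a by -0.30, while Ccnd2 changed by 0.77 and Cdk6 by 0.25, a call lost with limma on log2 FPKM. Ccnd3 lies 0.747 Mb from Trem2. The call of Cdc25a was lost without WT replicate 3 or Trem2_KO replicate 1 or 3 (adjusted p = 0.0969 to 0.193), and with total counts, DESeq2 or limma on log2 FPKM. Of 17 genes of the E2F, pocket protein and MuvB families, 2 were called, both lower, E2f1 at -0.20 and E2f8 at -0.66. These are 11.8% of the 17, near the 15.1% of all tested genes called lower, and no result about the families. Both calls were lost without some libraries. E2f1 lost its call without WT replicate 3 or Trem2_KO replicate 2 (adjusted p = 0.0687 to 0.0798), and E2f8 without WT replicate 3 or Trem2_KO replicate 3 (adjusted p = 0.0511 to 0.0791). With limma on log2 FPKM the call of E2f1 was lost, and with DESeq2 that of E2f8. The median log2 change of these 17 was -0.06.

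**Figure D4:**
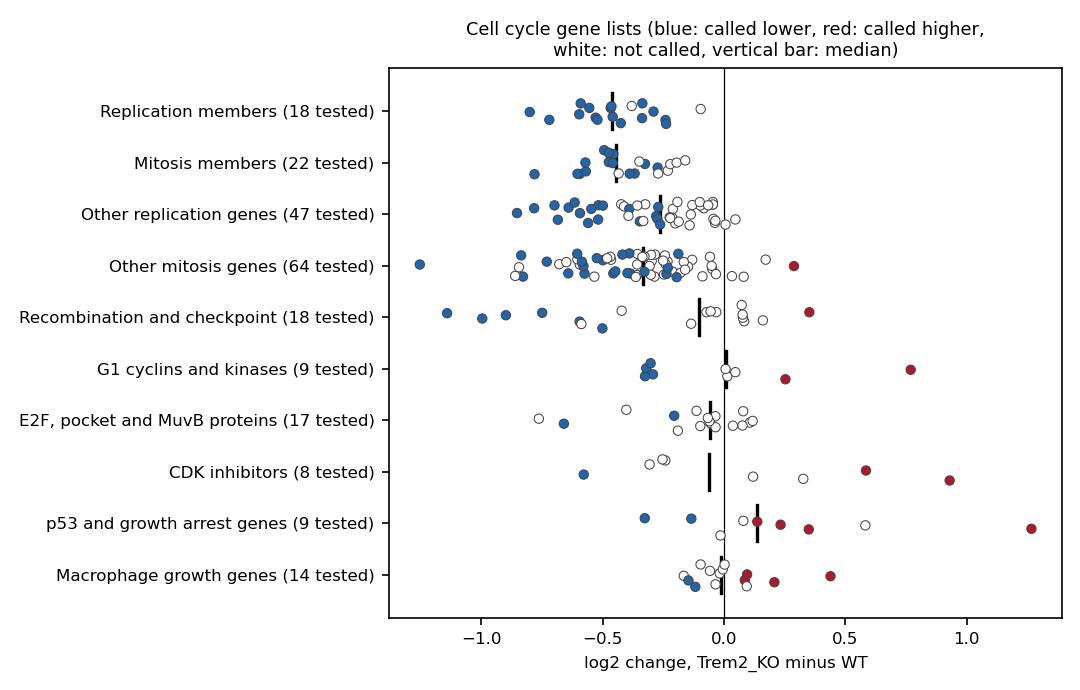
Each point is 1 tested gene, placed by its log2 change (Trem2_KO minus WT), with 1 row per list and a vertical bar at the list's median (blue, called lower; red, called higher; white, not called). The medians of the replication and mitosis members lie at -0.46 and -0.44, and those of the other replication and mitosis genes at -0.26 and -0.33.

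Many of the 18 genes of recombination repair and of the replication checkpoint are also read in S phase. Of the 18, edgeR called 6 lower and 1 higher, against 15.1% and 15.3% of all tested genes, with a median of -0.10. DESeq2 called 4 lower and 1 higher, and 3096 of all genes in either direction. Exo1, an exonuclease gene, changed by -1.14 (SE 0.279, adjusted p = 0.00112), Rad51ap1 by -0.995 (SE 0.212, adjusted p = 0.000187) and Brca1 by -0.75 (SE 0.159, adjusted p = 0.000181). Exo1 was read at 3.26, 2.56 and 2.43 CPM in WT against 1.098, 1.64 and 1.0003 CPM in Trem2_KO. The checkpoint kinase gene Atr was called higher, at 0.35 (SE 0.0854, adjusted p = 0.00115), a call lost on log2 FPKM. Of 14 tested genes for macrophage growth factors, their receptors and factors linked to self-renewal, 4 were called higher and 2 lower. The median was -0.01. The 2 lower, 14.3% of the list, lie near the 15.1% of all tested genes. Klf4, a transcription factor gene, changed by 0.44 (SE 0.0518, adjusted p = 9.34e-10) and the macrophage factor Maf by 0.21 (SE 0.0283, adjusted p = 6.56e-08). Spi1, which encodes PU.1, changed by -0.15 and Igf1 by -0.12.

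Markers of further cell types gave these levels in the same libraries, WT first. Their calls are read against the 15.3% of all tested genes called higher and the 15.1% called lower. A share near those is no result about a cell type. T and NK cell markers summed to 6.83 to 8.12 and 7.53 to 8.27 CPM, neither of the 2 tested was called, and Cd3e and Ncr1 had at most 3 reads in any library. Monocyte markers summed to 98.4 to 100.6 and 108.6 to 112.7 CPM, with 3 of 7 called higher and 1 lower. Most of that sum was Plac8, called lower at 80.1 to 68.8 CPM on average, while Ccr2 went from 6.22 to 17.04 CPM (log2 change 1.45) and Cx3cr1 from 5.52 to 15.1 CPM (log2 change 1.46). Dendritic cell markers summed to 98.4 to 102.8 and 99.4 to 102.6 CPM, with 1 of 6 called higher and 1 lower. Neutrophil markers summed to 192.6 to 209.2 and 182.8 to 192.2 CPM, with 1 of 4 called lower, while Ly6g was at 0 in all 6 libraries and Mpo and Elane had at most 3 reads. Sinusoidal endothelial markers summed to 2066 to 2082 and 2026 to 2039 CPM, although 10 of 13 were called higher and 2 lower. Stellate cell markers summed to 202.7 to 211.9 and 249.4 to 253.0 CPM, with 2 of 9 called higher although 6 of the 9 changes were below 0. Erythroid markers summed to 31.0 to 35.9 and 43.1 to 44.1 CPM, with 2 of 6 called higher. Cholangiocyte markers summed to 1.15 to 1.85 and 7.86 to 9.53 CPM, and Spp1 was the only one tested and was called higher, and Epcam and Cldn7 had at most 3 reads. The part of these cells in the lower cell cycle transcripts was not tested either.

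Counted over all windows, the motif letters stood in different shares of the 2 classes. E2F letters stood in 9 of 15 replication windows (60%) and in 3 of 18 mitosis windows (16.7%), against 17.1% of the 9901 windows of tested genes and 11.4% of all 20449 windows. CHR letters stood in 14 of 18 mitosis windows (77.8%) and in 3 of 15 replication windows (20%), against 14.1% of tested genes and 18.4% of all. CCAAT stood in 16 of 18 mitosis and 10 of 15 replication windows, against 39.2% of tested genes and 38.2% of all. A CHR match together with CCAAT was held by 14 of 18 mitosis windows and 3 of 15 replication windows, and by 5.99% of tested genes.

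In the other cell cycle genes the order of the classes was the same, with E2F letters in 19 of 39 replication and 15 of 56 mitosis windows (48.7% and 26.8%) and CHR letters in 8 of 39 and 40 of 56. The E2F share thus lay above that of tested genes in the other mitosis genes and just below it in the mitosis members. Of the 2 replication genes that were not called, Tk1 and Ccne1, neither window held E2F or CHR letters, and the same held for Pcna and Tyms, which were called lower. Of the mitosis genes, Cenpf, Plk1, Cdc20, Bub1 and Aurka held CHR letters and were not called, while Cenpe, Nusap1 and Birc5 held none and were called lower. Top2a, Mki67, Kif23, Cdk1, Kif11, Ube2c, Racgap1, Bub1b and Ccnb2 held CHR letters and were called lower, and Ccnb1 held none and was not called. E2F letters shared bases with CCAAT in 1 replication and 1 mitosis window, and E2F matches overlapped each other in 4 replication windows. All E2F matches of Mcm3 and Cdt1, and the only CHR match of Kif23, Racgap1, Cenpf, Plk1, Bub1 and Aurka, lie after the start site. Mcm2 holds no E2F letters in its window. The median GC content of the windows was 57.3% for replication members, 58.3% for mitosis members and 60.7% for tested genes. These matches describe letters and not binding.

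**Figure D5:**
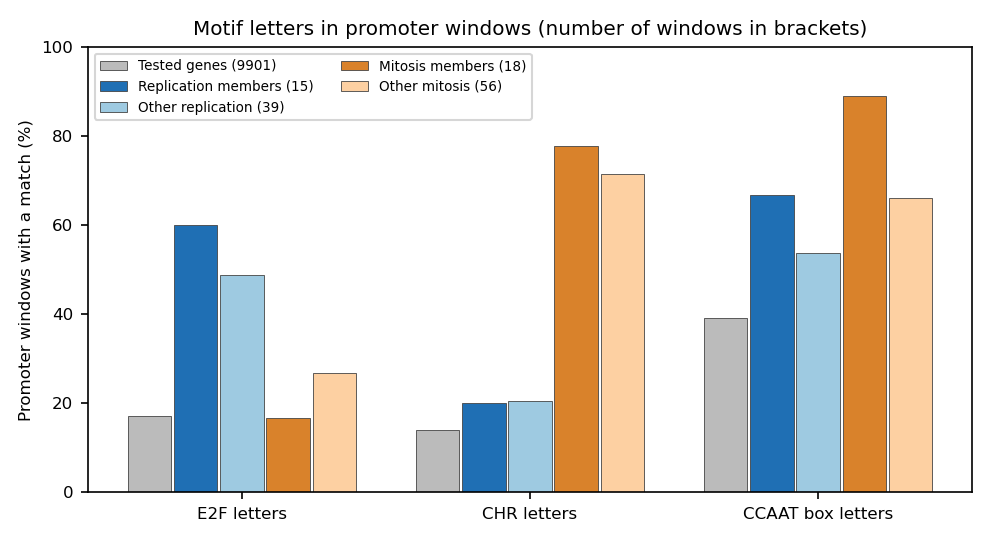
Bars give the percent of promoter windows, from 250 bases before to 50 after the start site, that hold the letters of each motif on either strand, with the number of windows in brackets. E2F letters stand in 60% of replication and 16.7% of mitosis members, and CHR letters in 20% and 77.8%.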

How the data were processed

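RNA of sorted Kupffer cells was measured in 6 libraries, 3 Trem2_KO and 3 WT, grouped by their titles. The deposited counts are whole reads per gene with no normalization. The authors' FPKM values equal those counts over gene length and 1 constant per library. Per the submitters' processing notes, the builds were GRCm38 and mm10 and the tools featureCounts 1.5.0-p3, HISAT2 2.0.5 and DESeq2 1.16.1. Neither the strand setting nor the treatment of reads that match several genes is given in the sources used here.

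The counts went into edgeR 4.0.16 under R 4.3.3 (filterByExpr, TMM, robust quasi-likelihood test, genotype as the only term), with Benjamini-Hochberg adjustment over 13776 genes. The SE is the log2 change over the root of its quasi-F. The test was tested on simulated counts. Lists are described by counts and medians. A count of 3, the limit that a count of 0 allows, is 0.173 to 0.192 CPM and covers counting error only. Replicates of a group differed beyond sampling noise, with a chi-square of 1.94 to 2.79 per degree of freedom.

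The members and lists were chosen with earlier results of these data known. Per-library values are given for the 8 members of each class with the smallest p and for members not called, and a few genes were added after their values were seen. Of other lists, up to 4 genes with the smallest p are named. Promoter windows are from RefSeq, matched by symbol, chromosome and strand. The alternatives tried were DESeq2 1.42.0, limma 3.58.1 on voom values, on log2(FPKM + 1) or on log2(FPKM + 0.1), a fixed biological coefficient of variation, a term for the replicate number, each library left out in turn, and another scaling, filter or threshold. Sums without Pcna and Stmn1 and the split at 10 CPM were chosen after seeing the data.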

Additional observations from a re-analysis of the deposited data

How the results depend on the processing

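No member changed direction under any alternative fitted over all genes. With a biological coefficient of variation fixed at 0.1, 10 replication and 9 mitosis members and 1487 of all genes were called, and with 0.2, 0, 0 and 371. At an adjusted p under 0.01, 9 mitosis members were called lower. On log2(FPKM + 1), which understates the change of low genes, the medians were -0.30 for replication and -0.27 for mitosis. Without the 5 members whose class is debatable (Ccna2, Top2a, Mki67, Stmn1 and Uhrf1) the mitosis median was -0.38. Leaving out 1 library at a time gave medians of -0.49 to -0.41 for replication and -0.45 to -0.38 for mitosis. Then 13 to 16 and 10 to 15 members were called lower, and 3377 to 3909 of all genes in either direction. DESeq2 called 13 and 10 lower, and 3096 of all genes in either direction. With limma on FPKM 12 and 10 were lower, and 3138 to 3169 of all genes were called. With total counts in place of TMM, all genes held 2517 calls higher and 1588 lower, against 2103 and 2079, and the members 16 and 14 lower. Fitting the replicate number as a block gave 16 replication and 15 mitosis members lower and 4230 genes called in all. Deviations of same-numbered libraries correlated at -0.0079, 0.0031 and 0.036 across genes, and not every library correlated best with its own number, so the numbers were not used to pair samples. Depth limits the genes with the fewest reads over the 6 libraries, whether called (Ccne2 with 222, Nusap1 and Cdc45 with 368) or not (Ccne1 with 194, Bub1 with 317, Ccnb1 with 347).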
